A study of Mus musculus with 35 samples.

Results

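The m6A-to-input ratio of each hippocampal transcript was compared between mice 2 weeks after intra-amygdala kainic acid (IAKA) and mice injected with PBS. For each mouse the log2 CPM (gene counts scaled to the library's total) of the library made from RNA pulled down with an m6A antibody was reduced by the log2 CPM of the input library, made from total RNA of the same mouse. Of 11 mice at 2 weeks, 9 were listed with both libraries. These were 6 IAKA mice (mice 5, 6, 7, 9, 21 and 42) and 3 PBS mice (mice 2, 3 and 4). Thus 18 of the 35 samples of the series entered. The readout was the difference of this ratio between IAKA and PBS mice, over 15722 of the 32544 genes in the count tables, those that passed the filter on low counts. A value above 0 means that a transcript took a larger share of the m6A library relative to its share of the input in IAKA than in PBS mice. Each library was scaled to its own total and by a TMM factor for library composition (0.87 to 1.16). The ratio therefore ranks transcripts within a mouse and cannot show a change of m6A over the whole transcriptome. Summed CPM of gene lists used the total alone.

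The animals were adult male C57BL/6JOlaHsd mice. IAKA mice received kainic acid through a cannula over the amygdala, went into status epilepticus and were then given lorazepam, and control mice received PBS by the same route. Kainic acid in the amygdala damages the hippocampus and leaves mice with spontaneous seizures by 2 weeks, a model of temporal lobe epilepsy. Whole hippocampal tissue was used, so neurons, glia and vessels contribute to every library.

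N6-methyladenosine (m6A) is a methyl mark placed on adenosines of mRNA in the nucleus by a writer complex around the methyltransferase METTL3 and its partner METTL14, with WTAP, RBM15, ZC3H13 and CBLL1 among the accessory subunits. The demethylases FTO and ALKBH5 can remove it, and readers such as the YTH domain proteins and the IGF2BP proteins bind it and affect splicing, export, decay or translation. In neurons many synaptic transcripts carry the mark. A pulldown library holds fragments of all transcripts, with methylated ones enriched, so the input of the same mouse is needed to separate a change of the mark from a change of the transcript's amount.

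The libraries differed in depth and in quality, and both bear on the values that follow. Input libraries held 3057578 to 8017282 counts in IAKA mice and 3507103 to 5720858 in PBS mice. The m6A libraries held 15291875 to 34564536 counts in IAKA mice and 6579414 to 16378045 in PBS mice (exact two-sided permutation test over the 9 mice, P = 0.0714, 0.571 after adjustment over 8 library measures). PBS mouse 4 had the shallowest m6A library and the widest spread of the ratio over genes, with an SD of 1.21 against 0.67 and 0.79 in the other PBS mice and 0.64 to 0.93 in IAKA mice. The gene with the most counts took 2.81% to 17.4% of an m6A library, the least in PBS mouse 3 and the most in IAKA mouse 42, and in most it was Lars2. The rank correlation of the ratio over genes between 2 mice ran from -0.15 to 0.65 with a median of 0.26 over 36 pairs of mice, a description across genes, which are not independent replicates.

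The m6A library of IAKA mouse 6 stood apart from its label in the summed level of reactive astrocyte genes. The summed level of 24 genes of reactive astrocytes was 279 CPM there, below the 319, 314 and 422 CPM of the PBS m6A libraries, although the input of the same mouse held 778 CPM against 343, 257 and 266 CPM in PBS inputs. The other 5 IAKA mice held 728 to 3371 CPM in the m6A library and 670 to 2756 CPM in the input, all above every PBS library. In mouse 6 the gap between these sums came mostly from Gfap, with 4900 of 8017282 input counts and 4296 of 34201149 m6A counts. Over the 24 genes the median log2 ratio of mouse 6 was -0.24, near the -0.21 of PBS mouse 4. In the m6A library of IAKA mouse 6 the summed level of 10 endothelial genes was 934 CPM, against 176 to 436 CPM in the other 8. Most of that sum was Pecam1, with 29118 of the library's 34201149 counts. With TMM scaling, which the sums did not have, Cdh5 was lowest there, at 2.41 CPM against 4.13 to 16.2 CPM in the others. Emcn (3.92 CPM) lay within their range.

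Libraries were deposited in several numbered tables, and these do not align with treatment evenly. All 3 PBS inputs and those of IAKA mice 5, 21 and 42 lie in the tables numbered 1.2, and the inputs of IAKA mice 6, 7 and 9 in those numbered 2. All 3 PBS m6A libraries and those of IAKA mice 7, 9 and 21 lie in set 5, and those of IAKA mice 5, 6 and 42 in set 3. Only IAKA mouse 21 shares both sets with the PBS mice.

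After adjustment, the ratio of 1 gene of 15722 (0.00636%) differed between IAKA and PBS mice. In edgeR's quasi-likelihood test with the mouse as a block, the predicted gene Gm38356 was lower in IAKA (adjusted P = 0.0325), and it is a gene at 0 in most libraries. It had 1472 counts in the m6A library of PBS mouse 4, none in that mouse's input, 16 and 30 counts in the inputs of IAKA mice 6 and 9, and none in any other library. The call rests on these 3 mice, and no gene was called without PBS mouse 4, without IAKA mouse 6 or without IAKA mouse 9. The next smallest adjusted P was 0.875.

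Without adjustment, 671 genes (4.27% of those tested) had P under 0.05. Of these, 324 (2.06%) had a higher ratio in IAKA mice and 347 (2.21%) a lower one. The per-mouse ratios of 149 genes (0.948%) lay higher in every IAKA than in every PBS mouse, and those of 201 genes (1.28%) lay lower in every IAKA mouse. Across all genes the median log2 change was -0.03, and 46.7% of genes had a change above 0.

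The precision of the comparison limits what a null result covers. The median standard error of the log2 change was 0.33, and its 10th and 90th percentiles were 0.21 and 0.74. The 95% confidence interval lay within -1 and 1 for 7780 genes (49.5%), for which a doubling or halving of the ratio lies outside the interval. For the remaining genes a change of that size was not excluded at this number of mice.

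The numerator and the denominator were also tested alone. Among m6A libraries, 1076 of 16559 genes (6.5%) had an unadjusted P under 0.05, and among inputs 1938 of 13752 genes (14.1%). In either, edgeR's adjusted P stayed above 0.05 for every gene. The 3 comparisons use the same libraries, so their values are set side by side and are not separate evidence.

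Since no gene other than Gm38356 passed, the genes that lead each direction are those with the smallest unadjusted P among genes whose mice did not overlap, with a mean of at least 10 CPM. None of these 20 passed (adjusted P = 0.875 for each), and their lack of overlap was part of the rule that chose them.

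Plekhg2 had the smallest P of the 20. Its log2 ratio was -2.34, -3.02 and -3.92 in PBS mice 2, 3 and 4, and it ran from -2.09 through a median of -0.99 to 0.13 in IAKA mice. It was depleted from the m6A library in every mouse but IAKA mouse 6, and less so in IAKA mice. The fitted log2 change was 2.06 ± 0.47 (SE, 6 IAKA and 3 PBS mice, edgeR adjusted P = 0.875), with a change of 1.06 ± 0.43 in m6A libraries and -1.09 ± 0.29 in inputs. The change was 1.47 without PBS mouse 4 and IAKA mouse 6.

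Cd44 encodes the hyaluronan receptor that reactive astrocytes and immune cells display. Its log2 ratio was -0.65, -0.75 and -1.46 in PBS mice and ran from -0.36 through a median of -0.16 to 0.31 in IAKA mice, highest in mouse 6. The ratio changed by 0.81 ± 0.25 (SE), with 1.52 ± 0.49 in m6A libraries and 0.74 ± 0.45 in inputs. It lay at 0.49 without PBS mouse 4 and IAKA mouse 6 and at 0.48 with the library sets as terms. It is the 1 member of the 20 whose transcript was higher in IAKA mice on both sides of the ratio by more than 0.5 on the log2 scale.

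Sik1, a kinase that is induced by cAMP and neuronal activity, had log2 ratios of -0.91, -1.40 and -1.24 in PBS mice and -0.74 to 0.80 in IAKA mice, with a median of -0.25. Znrf3 encodes a ubiquitin ligase that removes Wnt receptors from the membrane, and its ratio was -1.07, -1.93 and -1.89 in PBS mice and -0.90 to 0.07 in IAKA mice, with a median of -0.69. Brpf1, a scaffold of a histone acetyltransferase complex, had ratios of -1.12, -1.62 and -1.47 in PBS mice and -0.87 to 1.13 in IAKA mice, with a median of -0.39. By the rule that chose these genes the groups did not overlap, and IAKA mouse 6 gave the highest value each time. Their log2 changes were 1.04 ± 0.32, 1.03 ± 0.28 and 1.18 ± 0.35, and with the library sets as terms they were 0.53, 0.53 and 0.19.

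The other genes with a higher ratio were Lpar6, a receptor for lysophosphatidic acid (0.97 ± 0.30), Tmem9b (0.69 ± 0.22), Cnnm4, a magnesium transporter (1.02 ± 0.33), Amd2 (1.56 ± 0.46) and Cxx1a (1.17 ± 0.32). The change of Lpar6 was 0.62 and that of Amd2 0.85 without PBS mouse 4 and IAKA mouse 6. Amd2 and Cxx1a have near-identical copies elsewhere in the genome, so their counts may have been split between copies and are uncertain.

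Among genes with a lower ratio in IAKA mice, Nup50, a nuclear pore protein, had the smallest P. The log2 ratio was 0.50, 0.89 and 0.69 in PBS mice and ran from -0.17 through a median of 0.12 to 0.24 in IAKA mice. It changed by -0.60 ± 0.19 (SE), and it lay at -0.58 without PBS mouse 4 and IAKA mouse 6 and at -0.70 with the library sets as terms. The change was -0.25 ± 0.19 in m6A libraries and 0.36 ± 0.16 in inputs.

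Slc1a4 encodes a transporter of serine and other neutral amino acids. In PBS mice its log2 ratio was 0.14, 0.34 and 0.37, and it ran from -0.80 through a median of -0.29 to -0.14 in IAKA mice. Every PBS mouse lay above 0 and every IAKA mouse below. The change was -0.66 ± 0.21, with -0.12 ± 0.36 in m6A libraries and 0.49 ± 0.27 in inputs.

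Slc38a1, a glutamine transporter, and Setd3, the histidine methyltransferase of actin, differed in the m6A libraries rather than in the input. The ratio of Slc38a1 was 0.14, 0.30 and 1.22 in PBS mice and -0.20 to 0.05 in IAKA mice, with a median of -0.12. That of Setd3 was 0.30, 0.39 and 1.16 in PBS mice and -0.45 to 0.20 in IAKA mice, with a median of 0.05. In both, PBS mouse 4 was far above the other PBS mice. The log2 change was -0.65 ± 0.23 for Slc38a1, with -0.71 ± 0.22 in m6A libraries and -0.01 ± 0.13 in inputs, and -0.66 ± 0.23 for Setd3, with -0.76 ± 0.26 and -0.04 ± 0.14. Slc38a1 lay at -0.31 and Setd3 at -0.38 without PBS mouse 4.

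The other genes with a lower ratio were Ube2e3, a ubiquitin-conjugating enzyme (-0.74 ± 0.24), Rnps1 (-0.62 ± 0.21) and U2af1l4 (-0.72 ± 0.25), which both act in splicing, the zinc finger gene Zfp831 (-0.55 ± 0.18), the tubulin gene Tubb2a (-0.56 ± 0.20) and Plekha7 (-0.72 ± 0.26), a protein of cell junctions. The change of Ube2e3 was -0.39 and that of Tubb2a -0.36 without PBS mouse 4. Among all 20, changes above 0 ran from 0.69 to 2.06 and changes below 0 from -0.74 to -0.55, in genes chosen from these same ratios.

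**Figure D1:**
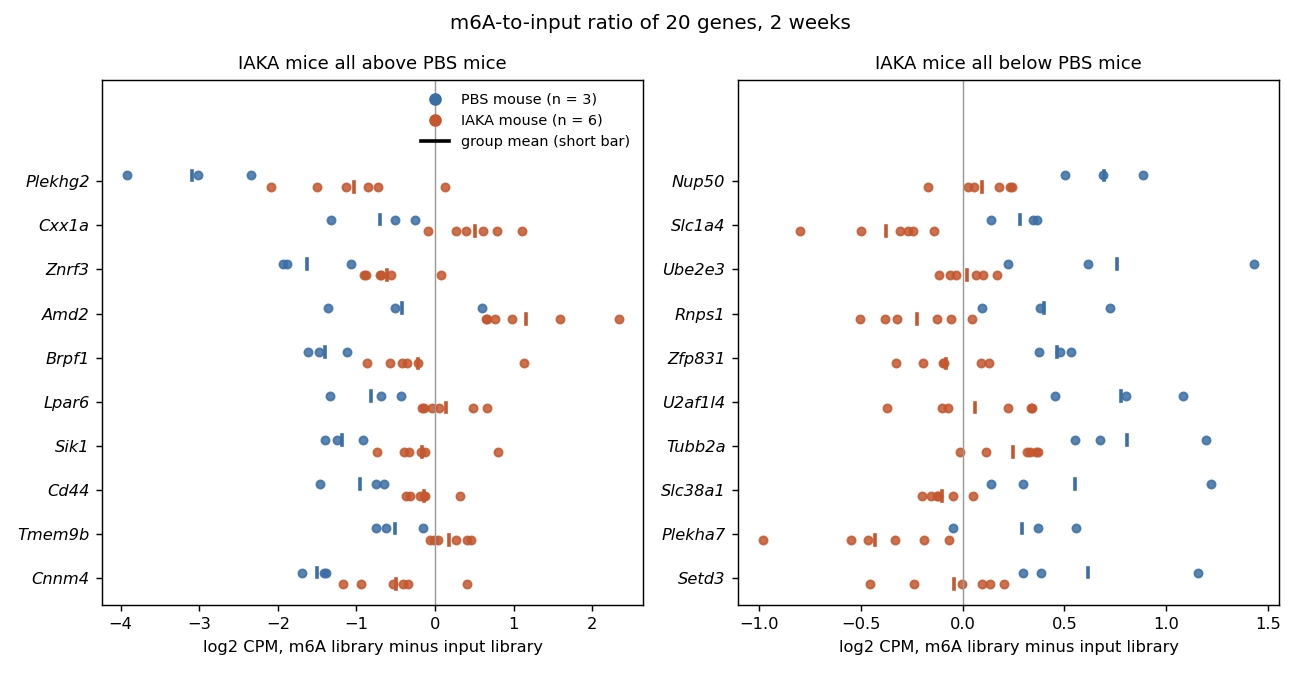
Log2 ratio (log2 CPM of the m6A library minus that of the input library, x axis) of the 20 leading genes in 3 PBS and 6 IAKA mice, each point 1 mouse and each short bar a group mean, with genes higher in IAKA mice on the left and lower on the right. The groups do not overlap by the rule that chose the genes, the PBS values of Plekhg2 reach -3.92, and no gene passed adjustment.

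The writer and eraser lists had median changes of the ratio near the -0.03 of all genes. Single members of the m6A machinery lay further from 0. Of 11 writer transcripts tested (13 listed), 6 had a change above 0 and the median was 0.01, or -0.11 without PBS mouse 4. The ratio of Mettl3 changed by 0.09 ± 0.24 and that of Mettl14 by 0.33 ± 0.30 (SE, edgeR adjusted P = 0.95 and 0.877), and the Mettl14 change was -0.11 without PBS mouse 4. The erasers Fto and Alkbh5 changed by -0.18 ± 0.18 and 0.22 ± 0.20.

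Wtap, which holds the writer complex in nuclear speckles, was the writer with an unadjusted P under 0.05. Its log2 ratio was -0.65, -1.36 and -1.13 in PBS mice and ran from -0.80 through a median of -0.31 to 1.08 in IAKA mice, so the groups overlapped in IAKA mouse 42. The change of the ratio was 0.91 ± 0.36 (SE, edgeR adjusted P = 0.875). Its m6A level changed by 0.26 ± 0.28 and its input level by -0.73 ± 0.18, and with the library sets as terms the ratio changed by 0.15.

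The 15 reader transcripts had a median change of 0.14, with 9 above 0. That median was 0.05 without PBS mouse 4 and -0.05 without PBS mouse 4 and IAKA mouse 6. Igf2bp3, which binds and stabilises target mRNAs, was the reader with an unadjusted P under 0.05. The PBS mice had log2 ratios of -1.59, -2.36 and -2.55 and the IAKA mice of -1.73 to -0.02, with a median of -1.05. IAKA mouse 7 fell among the PBS mice and the other 5 lay above them. This gave a log2 change of 1.16 ± 0.35 (SE, edgeR adjusted P = 0.875), with 0.28 ± 0.35 in m6A libraries and -0.91 ± 0.28 in inputs, and it was 0.77 without PBS mouse 4 and IAKA mouse 6.

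Igf2bp2 showed how far 1 library reached. Its log2 ratio was -1.61, -2.74 and -4.76 in PBS mice and -2.18 to -1.08 in 5 IAKA mice, but 3.00 in IAKA mouse 6, whose m6A library held 98.3 CPM against 1.39 to 11.8 CPM in the other 8. The readers of the YTH family changed by 0.56 ± 0.27 (Ythdf2), 0.44 ± 0.22 (Ythdf3), -0.36 ± 0.27 (Ythdf1), 0.14 ± 0.36 (Ythdc1) and -0.08 ± 0.26 (Ythdc2), none with an unadjusted P under 0.05. Without PBS mouse 4 the changes were 0.26, 0.23, -0.08, -0.27 and -0.17 in the same order.

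Several transcripts were chosen because the study assayed them by m6A pulldown and qPCR, among them Serpina3n, Zfp57, Oprk1, Mastl and Lrrc20 in mice at this time point. Serpina3n, a secreted protease inhibitor that marks reactive astrocytes, had a log2 ratio of 0.22, 0.57 and 1.67 in PBS mice and ran from -0.54 through a median of 0.04 to 0.40 in IAKA mice. The groups overlapped, and PBS mouse 4 was the highest. The log2 change was -0.87 ± 0.34 (SE, edgeR adjusted P = 0.875), while its level changed by 2.40 ± 0.89 in m6A libraries and by 3.18 ± 0.96 in inputs. The change of the ratio was -0.37 without PBS mouse 4. The other 4 changed by 0.19 ± 0.33 (Zfp57), 0.45 ± 0.54 (Oprk1), -0.47 ± 0.46 (Mastl) and -0.29 ± 0.32 (Lrrc20), each with overlapping groups. The change of Mastl was -0.13 and that of Zfp57 0.42 without PBS mouse 4. The transcripts measured at 24 hours also overlapped between the groups, with changes of 0.07 ± 0.23 (Mier1), -0.18 ± 0.23 (Dido1), 0.12 ± 0.22 (Pik3r1), -0.14 ± 0.22 (Atp2b3) and 0.41 ± 0.26 (Atf7ip).

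Reactive astrocyte and microglial lists had larger median changes in amount than in ratio. Reactive astrocytes thicken and express intermediate filaments and acute phase proteins after seizures, and microglia, the resident phagocytes, express complement and lysosomal genes. Among 24 reactive astrocyte genes the median log2 change was 1.12 in m6A libraries, and it was 0.94 over the 17 of them tested in inputs. That of the ratio was -0.06 over the 24, with 11 genes above 0. Among 15 microglial genes the medians were 0.85 in m6A libraries, 0.94 in inputs and -0.03 for the ratio, with 5 genes above 0. The 16 myelin genes had medians of 0.12, 0.17 and -0.10. In bulk tissue, more cells of a type and more RNA per cell cannot be told apart, and no list was tested as a set.

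The per-mouse medians showed the same overlap. For the reactive astrocyte genes the median log2 ratio was -0.08, -0.12 and -0.21 in PBS mice and ran from -0.24 through -0.12 to 0.03 in IAKA mice. For the microglial genes it was -0.01, -0.06 and 0.09 in PBS mice and ran from -0.29 through -0.01 to 0.30 in IAKA mice. The group ranges overlapped in both lists. With the library sets as terms the median change was 0.16 for reactive astrocytes and 0.53 for microglia. Without PBS mouse 4 and IAKA mouse 6 it was 0.06 and 0.04, and within both sets, with IAKA mouse 21 alone against the PBS mice, it was -0.14 and 0.16.

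Gfap, the intermediate filament of astrocytes, and C1qa, a complement gene of microglia, were named outside the rule, and both had a low ratio in IAKA mouse 6. Gfap held 207, 172 and 166 CPM in the inputs of PBS mice and 535 to 2374 CPM in those of IAKA mice. Its m6A libraries held 147, 161 and 206 CPM in PBS mice and 453 to 2296 CPM in 5 IAKA mice, but 138 CPM in IAKA mouse 6. Its log2 ratio was thus -2.33 in mouse 6, against -0.68 to -0.04 in the other IAKA mice and -0.49, -0.09 and 0.31 in PBS mice. The log2 change of the ratio was -0.52 ± 0.43 (SE, edgeR adjusted P = 0.876) and -0.21 without mouse 6, and it was 0.28 with the library sets as terms. C1qa had a ratio of -3.49 in IAKA mouse 6 and -0.73 to 0.62 in the others, and its change was -0.06 ± 0.87, or 0.46 without mouse 6 and 1.94 with the library sets as terms.

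Vim, another intermediate filament gene of reactive astrocytes, had a log2 ratio of 0.11, 0.35 and 1.48 in PBS mice and -0.51 to 0.19 in IAKA mice, with a median of -0.14, and the groups overlapped. The log2 change was -0.80 ± 0.29 (SE, edgeR adjusted P = 0.875), with 1.39 ± 0.67 in m6A libraries and 2.15 ± 0.70 in inputs. It lay at -0.34 without PBS mouse 4 and IAKA mouse 6. Within the reactive astrocyte list Cd44 had a higher ratio and Vim and Serpina3n a lower one at an unadjusted P under 0.05. That threshold was reached by 4.27% of all genes tested. Over the 24 genes of the list 11 changes lay above 0 and 13 below, so the members did not share a direction.

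Lists of inflammation and matrix genes behaved like the glial lists. Of 32 inflammation genes tested (38 listed), 29 had a change above 0 in m6A libraries (median 0.88). All 26 tested in inputs did (median 0.65), while 13 of the 32 did for the ratio (median -0.06). Over all genes tested, 8157 of 15649 lay above 0 in m6A libraries, 7204 of 13752 in inputs and 46.7% for the ratio. Cxcl10, a chemokine induced by interferon, had 0 to 4 counts in every PBS library and 1 to 64 in the IAKA libraries, too few for a ratio to be read. The 33 extracellular matrix genes tested (34 listed) had medians of 0.32 in m6A libraries and -0.11 for the ratio, and 0.39 over the 29 tested in inputs. The 40 collagen genes tested (44 listed) had medians of 0.60 in m6A libraries and -0.09 for the ratio, and 0.68 over the 30 tested in inputs.

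**Figure D2:**
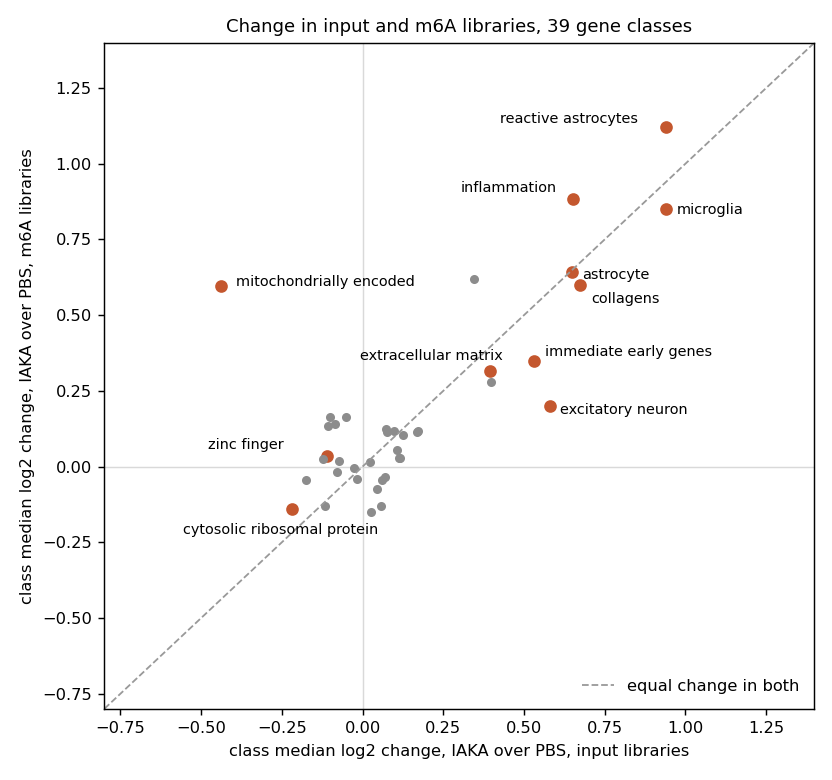
Median log2 change (IAKA over PBS) of 39 gene classes with at least 8 tested genes, in input libraries (x axis) and in m6A libraries (y axis), with a dashed line where both change equally. Reactive astrocyte genes (0.94 and 1.12) and microglial genes (0.94 and 0.85) lie near the line, whereas mitochondrially encoded genes lie at -0.44 in inputs and 0.60 in m6A libraries.

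Most neuronal lists lay below 0, with excitatory neuron markers lowest of the 39 classes with at least 8 tested genes. The 8 inhibitory neuron markers had a median change of the ratio of -0.24, or -0.06 without PBS mouse 4. The 10 markers of excitatory neurons had a median change of the ratio of -0.35, with 1 above 0, and medians of 0.20 in m6A libraries and 0.58 in inputs. Their median log2 ratio was -0.17, -0.07 and 0.51 in PBS mice and ran from -0.42 through -0.11 to 0.01 in IAKA mice, so that PBS mouse 4 alone lay above all IAKA mice. The median change was -0.19 without PBS mouse 4, -0.37 with the library sets as terms and -0.34 within both sets, where IAKA mouse 21 stands alone.

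The 27 genes of presynaptic release, which dock and fuse synaptic vesicles, had a median change of -0.11. Their median log2 ratio was 0.10, 0.12 and 0.06 in PBS mice and ran from -0.09 through -0.05 to -0.02 in IAKA mice. The groups did not overlap, and all 9 medians lay between -0.09 and 0.12. None of the 27 had an unadjusted P under 0.05, and the median change ran from -0.16 to -0.03 over 20 alternative settings. Among the 39 classes with at least 8 tested genes, the medians of 37 overlapped between groups, and the other class without overlap was that of all protein-coding genes, at -0.03 to -0.01 in IAKA mice against -0.01, 0.02 and 0.02 in PBS mice.

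The 38 genes of glutamatergic transmission had a median change of -0.10 with 12 above 0, the 33 ion channel genes -0.11 with 7 above 0 and the 29 genes of GABAergic transmission 0.07 with 18 above 0. The 30 immediate early genes, which neuronal firing induces, had a median of -0.17 with 6 above 0. That median turned to 0.12 with the library sets as terms. Without PBS mouse 4 and IAKA mouse 6 the glutamatergic median was -0.05, the GABAergic -0.08 and that of immediate early genes -0.06. Bdnf, a growth factor of neurons, changed by 1.58 ± 0.40 in m6A libraries and 1.19 ± 0.41 in inputs, and its ratio by 0.41 ± 0.22 (SE, edgeR adjusted P = 0.875).

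**Figure D3:**
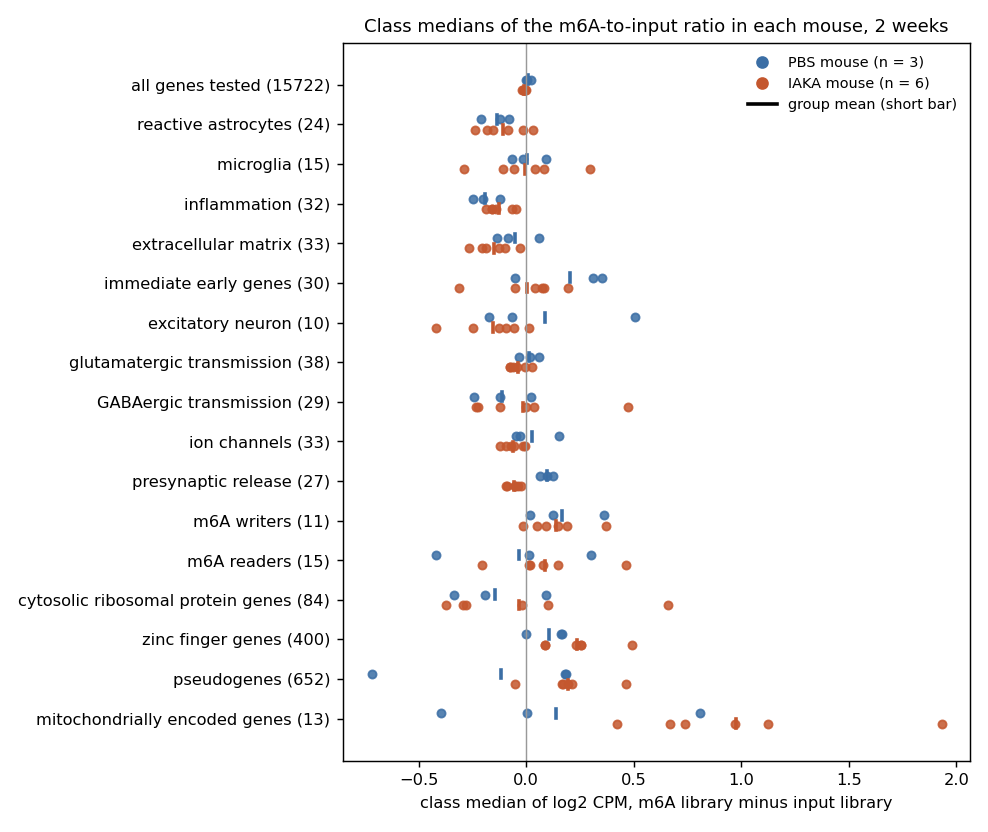
Class median of the log2 ratio (log2 CPM, m6A minus input library, x axis) in 3 PBS and 6 IAKA mice for 16 classes and all genes tested, with the number of genes tested in parentheses, each point 1 mouse and each short bar a group mean. Most classes overlap near 0, while mitochondrially encoded genes range from -0.39 to 0.81 in PBS mice and from 0.42 to 1.93 in IAKA mice.

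The class with the largest median change was that of the 13 mitochondrially encoded genes, which encode subunits of the respiratory chain and of ATP synthase. The median log2 change of their ratio was 0.63, with 11 of 13 above 0 (46.7% of all genes tested). An unadjusted P under 0.05 was reached by 5, all higher in IAKA mice (2.06% of all genes tested). The class median was 0.81, 0.00 and -0.39 in PBS mice 2, 3 and 4, and 0.67, 1.93, 0.74, 0.97, 1.12 and 0.42 in IAKA mice 5, 6, 7, 9, 21 and 42. PBS mouse 2 lay among the IAKA mice, and PBS mice 3 and 4 lay below all of them. The members' median change was 0.60 in m6A libraries and -0.44 in inputs. In contrast, 76 nuclear genes of oxidative phosphorylation had a median change of the ratio of 0.09, or -0.05 without PBS mouse 4 and IAKA mouse 6.

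Mt-Nd4l, a subunit of complex I, had the smallest P of the mitochondrial genes. Its log2 ratio was 0.61, -0.30 and -0.48 in PBS mice and 0.56, 1.79, 0.76, 1.12, 1.23 and 1.09 in IAKA mice 5, 6, 7, 9, 21 and 42. All but IAKA mouse 5 lay above every PBS mouse. The log2 change was 1.15 ± 0.30 (SE, edgeR adjusted P = 0.875). The ratio of mt-Nd2 changed by 1.19 ± 0.43 and that of mt-Nd4 by 0.95 ± 0.37 (0.53 and 0.41 without PBS mouse 4 and IAKA mouse 6), both also with overlap, and those of mt-Co1 and mt-Atp8 by -0.26 ± 0.42 and -0.55 ± 1.00.

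The size of the mitochondrial change depended on the libraries used. The class median was 0.33 without IAKA mouse 6, 0.43 without PBS mouse 4 and 0.16 without both. It was 0.06 with the library sets as terms, 0.71 within m6A set 5 and 0.20 within the input tables numbered 1.2. Within both sets, with IAKA mouse 21 alone against the PBS mice, it was 0.96. Mitochondrial counts made up 2.70% to 17.5% of IAKA m6A libraries and 6.88% to 10.1% of PBS m6A libraries, and 1.41% to 6.28% and 3.44% to 5.29% of the inputs. The part of the library sets in this difference was not tested beyond these values.

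**Figure D4:**
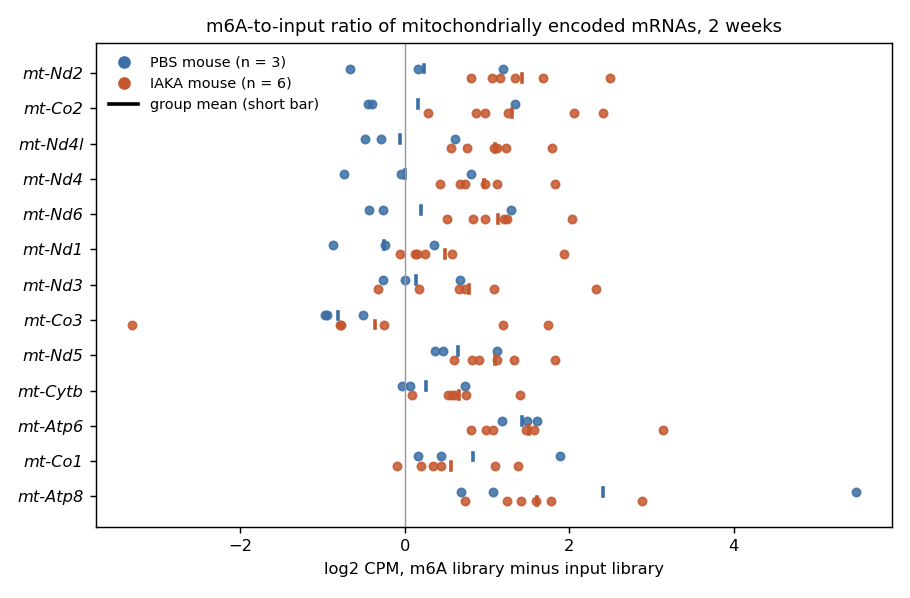
Log2 ratio (log2 CPM, m6A minus input library, x axis) of the 13 mitochondrially encoded mRNAs in 3 PBS and 6 IAKA mice, each point 1 mouse and each short bar a group mean, ordered by the fitted change. For mt-Nd4l the IAKA mice sit between 0.56 and 1.79 and the PBS mice between -0.48 and 0.61, and for mt-Atp8 a single PBS mouse lies at 5.49.

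Among classes defined by gene type, the 400 zinc finger genes tested (435 in the tables) had a median change of 0.12. Of these, 248 (62%) lay above 0, against 46.7% of all genes tested. An unadjusted P under 0.05 was reached by 22, beside 4.27% of all genes, with 19 higher and 3 lower in IAKA mice. Their median log2 ratio was 0.17, 0.16 and 0.00 in PBS mice and ran from 0.09 through 0.24 to 0.49 in IAKA mice, with overlap. The median change was -0.00 within both sets, with IAKA mouse 21 alone against the PBS mice. Zfp738 had the smallest P among members with a higher ratio that are named here, with ratios of 0.41, -0.08 and -0.62 in PBS mice, 0.40 to 1.42 in IAKA mice and a change of 0.86 ± 0.28 (SE, edgeR adjusted P = 0.875), or 0.53 without PBS mouse 4 and IAKA mouse 6. The 652 pseudogenes tested (5669 in the tables) had a median change of 0.26 with 405 above 0, but that median was 0.04 without PBS mouse 4, in which their median ratio was -0.72 against 0.19 and 0.18 in the other PBS mice. The 1109 predicted genes tested (9611 in the tables) had a median change of 0.26 and the 69 long noncoding RNAs (243 in the tables) 0.20, and both were also smaller without PBS mouse 4, at 0.09 and 0.10. The 84 cytosolic ribosomal protein genes tested (88 listed) had a median of 0.04.

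Transcripts were also ordered by a ratio measured in other mice. Mean log2 ratios were taken from the 4 mice at 24 hours with both libraries at 100000 counts or more, 1 PBS and 3 IAKA mice, for 15141 genes, and the genes were split into 5 equal bins. From the lowest to the highest bin the median change at 2 weeks was 0.08, -0.07, -0.06, -0.05 and -0.02. The median ratio of the highest bin minus that of the lowest was 0.75, 0.79 and 0.65 in PBS mice 2, 3 and 4 and 0.73, 0.26, 0.75, 0.99, 0.40 and 0.65 in IAKA mice 5, 6, 7, 9, 21 and 42. In every mouse at 2 weeks the median of the highest bin thus lay above that of the lowest. The spread between bins overlapped between the groups (exact two-sided permutation P = 0.524, 0.786 adjusted over 4 such splits). The order rests in part on IAKA mouse 8, whose 24-hour input and m6A library held 24.1% and 26.6% counts of predicted genes. The 24-hour m6A libraries of IAKA mice 67 and 98 held 1979606 and 1652933 counts.

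The extremes of that order were examined after the values of the bins had been seen. The 151 genes with the lowest 24-hour ratios, the 1% with a median of -1.52, had a median change of 0.91 at 2 weeks. Of these, 124 lay above 0 (46.7% of all genes tested). At an unadjusted P under 0.05, 27 had a higher and 1 a lower ratio (2.06% and 2.21% of all genes). Their median log2 ratio was -1.23, -1.64 and -2.35 in PBS mice, and -0.94, 0.47, -1.12, -1.05, -0.48 and -1.25 in IAKA mice 5, 6, 7, 9, 21 and 42. This median was below 0 in all mice but IAKA mouse 6, and IAKA mouse 42 lay within the PBS mice. The median change was 0.40 without PBS mouse 4 and IAKA mouse 6, and it ran from 0.31 to 1.22 over 20 alternative settings. The median changes were 0.45 over the 144 members tested in m6A libraries and -0.39 over the 115 tested in inputs, and 44 of the 151 are predicted genes. The 151 genes with the highest 24-hour ratios had a median change of 0.16 with 94 above 0, and -0.11 without PBS mouse 4.

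**Figure D5:**
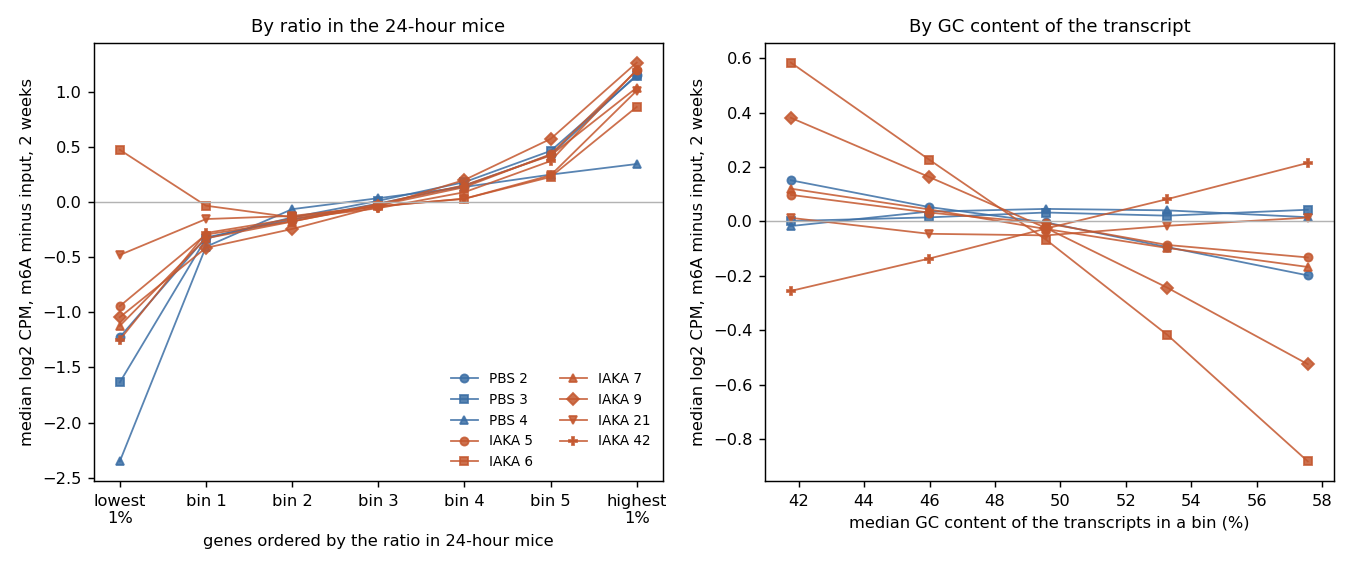
Median log2 ratio at 2 weeks (log2 CPM, m6A minus input library, y axis) in each of the 9 mice, 1 line per mouse, over genes ordered by the ratio in 24-hour mice (left) and over bins of transcript GC content in percent (right). On the left the lines part in the lowest 1%, from -2.35 in PBS mouse 4 to 0.47 in IAKA mouse 6, and on the right they fan out with GC content, to -0.88 in IAKA mouse 6 and 0.21 in IAKA mouse 42.

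Properties of the transcript itself were set beside the ratio, with 1 GENCODE transcript for 13626 of the tested genes. GGACT, the form of the m6A consensus motif searched on the transcript strand, was present in 13057 of them (95.8%), so its density per kilobase was used. From the fewest to the most GGACT per kilobase the median change of the 5 bins went from -0.00 to -0.08, and from the shortest to the longest transcripts from -0.02 to -0.05. In neither split did the difference between the end bins part the groups (exact two-sided permutation P = 0.595 and 0.786, both 0.786 adjusted over 4 splits).

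GC content moved with the ratio in some mice. The bins had a median GC content of 41.8% to 57.6%, and the median change went from 0.11 in the lowest through 0.01, -0.06 and -0.13 to -0.21 in the highest. From the lowest to the highest bin the median ratio went from 0.58 to -0.88 in IAKA mouse 6, from 0.38 to -0.52 in IAKA mouse 9 and from -0.26 to 0.21 in IAKA mouse 42. The mice within the IAKA group thus differed in sign, and the end bins did not separate the groups (exact two-sided permutation P = 0.548, 0.786 adjusted). Without PBS mouse 4 and IAKA mouse 6 the end bins changed by 0.00 and -0.03. After a correction for GC content in each library the 5 bins changed by -0.07 to -0.05, 752 genes had an unadjusted P under 0.05 and none was called. Transcripts of the excitatory neuron list had a median GC content of 55.5% and mitochondrially encoded ones of 37.1%, beside 49.6% for all genes with a transcript. The median change of the mitochondrial genes was 0.26 and that of the excitatory neuron list -0.30 after the correction.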

How the data were processed

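Total RNA and RNA pulled down with an m6A antibody were sequenced from single hippocampi. As deposited, the tables hold unnormalized counts for each gene symbol in 4 lanes per library, and the submitters' processing notes name the build mm10. Which aligner, counter, annotation and strand setting the authors used is not given here, and overlapping genes and near-identical copies are therefore uncertain. Lanes were summed. A numeric prefix in the column name was read as the m6A library where the column did not name the assay. Another 8 columns of input values for mice listed without an input library were not used. The mice listed with an m6A library only were PBS mice 50 and 78 at 2 weeks and IAKA mouse 79 at 24 hours.

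Counts were fitted in edgeR 4.0.16 (R 4.3.3) with TMM scaling, filterByExpr, the mouse as a block and a robust quasi-likelihood test of the treatment by assay interaction, with Benjamini-Hochberg adjustment over all genes tested and a threshold of 0.05. The SE is the absolute log2 change divided by the square root of F. Per-mouse ratios used TMM-scaled log2 CPM with a prior count of 2. The input and the m6A library of 1 animal form a pair by design, and their deviations from the group means correlated at -0.03 to 0.50, above 0.1 in 6 of 9 mice. Nothing in the sources used here says more of how mice were drawn. Each mouse gave 1 library of each kind, so the spread behind the P-values mixes mice, pulldowns and library sets.

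Alternatives used limma 3.58.1 and DESeq2 1.42.0, other scalings and filters, the library sets and leaving out each mouse. Those without PBS mouse 4 and IAKA mouse 6, with another edgeR setting (legacy) and with GC correction were chosen after seeing the data. Named were, per direction, the 10 genes with the smallest P among genes whose mice did not overlap and whose mean was at least 10 CPM, leaving out predicted genes, since too few passed adjustment, then m6A regulators, transcripts the study measured by qPCR (Pcdhgc4 was not analysed here) and up to 3 members per list with the smallest P. Members and lists were chosen with earlier results of these data known. Of the tested genes, 14734 matched a RefSeq symbol for gene type. The main edgeR test was tried on simulated counts with planted changes of the ratio, drawn from its own fitted means and dispersions. That simulation held no effect of library sets.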

Additional observations from a re-analysis of the deposited data

Results flagged for a closer look

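In 16 of 206 groups of 6 IAKA mice examined (7.77%), 1 mouse stood apart from the others by Dixon's criterion, which chance alone meets in about 1 in 20 groups. PBS groups of 3 mice cannot be examined in this way. Of the 16, 11 were values of IAKA mouse 6, whose m6A library held less Gfap than those of PBS mice (138 CPM against 147 to 206 CPM). Its log2 ratio stood below that of the other IAKA mice for C1qa (-3.49), Gfap (-2.33) and Bbc3 (-3.02), a cell death gene with 21 input counts and 7 m6A counts there. It stood above the others for Igf2bp2 (3.00), Col4a3 (1.51), Brpf1 (1.13), Pecam1 (1.09), an endothelial adhesion gene, Cbll1 (0.93), Col1a1 (0.61), Cd44 (0.31) and Znrf3 (0.071). Col4a3, a basement membrane collagen, lay at -0.15 to -0.01 in the other 5 IAKA mice and at -0.37, -1.01 and -0.40 in PBS mice.

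The other values that stood apart were spread over 4 mice. They were the log2 ratio of Hk1, the hexokinase of brain, in IAKA mouse 42 (0.24), the median of the major histocompatibility genes in the same mouse (0.33), Col10a1 in IAKA mouse 7 (-1.06), Rgs16, a regulator of G protein signalling, in IAKA mouse 21 (0.62) and Slc44a2, a choline transporter-like gene, in IAKA mouse 9 (-0.020).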

How the results depend on the processing

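The number of genes with a changed ratio after adjustment was 1 in the reported fit and stayed at 1 under library size or RLE scaling, without mitochondrial genes, under the other 2 filters on low counts and with the other edgeR setting. It was 0 without the replicate block, with limma, with voom, without the robust fit, with all 2-week libraries, with the library sets as terms, within m6A set 5, within the input tables numbered 1.2, within both sets, and with the replicate block over genes with a GC value, with or without GC correction. It was 3 with DESeq2 (Gm10240, Gm13370 and Rpl28-ps1) and 3 without PBS mouse 4 and IAKA mouse 6 (Gm10718, Gm10719 and Gm10801), pseudogenes or predicted genes, all higher in IAKA mice. Without the replicate block, which ignores that each mouse gave both libraries, 371 genes had an unadjusted P under 0.05, and 335 did without PBS mouse 4 and IAKA mouse 6.

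Leaving out each mouse in turn gave 0 to 2 called genes, and 262 (without PBS mouse 4) to 1385 (without PBS mouse 2) at an unadjusted P under 0.05. In m6A libraries alone the ranges were 0 to 2 and 364 to 1628 (without the same 2 mice), and in inputs 0 to 1 and 901 (without PBS mouse 3) to 2564. The causes were not tested.

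Library size scaling moved the median change over all genes from -0.03 to -0.08. Of 153 named genes, 106 kept their sign in all 28 alternatives. With 3 PBS mice, with inputs of 3057578 counts and more, and with library sets that overlap between groups in 1 IAKA mouse only, treatment and library set can be told apart only in part.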
